A study of Mus musculus with 8 samples.

Results

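The comparison set hair germ cells of miR-200 transgenic pups against hair germ cells of control pups, as the raw gene counts of transgenic pups 4 and 6 and of control pups 3 and 5. These are 4 of the 8 libraries of the series, and the other 4 are the interfollicular epidermis (IFE, the skin epithelium between follicles) of the same pups. The transgenic pups carried both parts of a switch. K14rtTA makes a transactivator in basal epithelial cells, from the keratin 14 promoter, and with doxycycline that protein turns on the miR-200 insert of pTRE2-200bcl. Control pup 3 carried K14rtTA only and control pup 5 carried pTRE2-200bcl only, so the controls differed from each other in genotype and neither held the complete system. All pups were of a mixed strain, were taken at postnatal day 0.5, and had dams fed doxycycline chow. The sort for hair germ took cells with the K14RFP reporter, a red protein marking keratin 14 cells, that were also high in P-cadherin and in alpha6 integrin.

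The hair germ is the bud of epithelial cells that grows down from the newborn or embryonic epidermis and becomes the hair follicle. It forms under Wnt, Eda, BMP and Hedgehog signals that pass between epithelium and the dermal cells beneath it. The miR-200 family is a set of small RNAs that are abundant in epithelia and lower mRNAs through matches between the seed, bases 2 to 8 of the microRNA, and the 3′ UTR. It is best known for holding down Zeb1 and Zeb2, repressors of E-cadherin.

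The mature sequences are shown because the family has 2 seeds, which decide which mRNAs can be bound. They are given 5′ to 3′ from RefSeq (GRCm38.p6), with the seed in capitals. The first pair shares 1 seed.

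mmu-miR-200a-3p: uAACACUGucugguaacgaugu
mmu-miR-141-3p: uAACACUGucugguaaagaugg

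The other three share a seed that differs from it at a single base.

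mmu-miR-200b-3p: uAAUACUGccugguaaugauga
mmu-miR-429-3p: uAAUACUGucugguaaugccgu
mmu-miR-200c-3p: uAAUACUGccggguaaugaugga

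They come from 2 clusters, both on the minus strand. In the first, miR-200b-3p lies at chr4:156055685-156055706, miR-200a-3p at chr4:156054911-156054932 and miR-429-3p at chr4:156053916-156053937. In the other, miR-200c-3p lies at chr6:124718324-124718346 and miR-141-3p at chr6:124717917-124717938.

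Counts assigned to genes ran from 7109871 to 14039583 in the 4 hair germ libraries. Levels below are CPM (counts scaled to a common library size after the trimmed mean of M values), each given for control pups 3 and 5 and then transgenic pups 4 and 6. A gene passed where its edgeR quasi-likelihood p, adjusted by Benjamini-Hochberg over all 14176 genes tested, was under 0.05. Each arm holds 2 pups, and the SE is that of the fitted log2 fold change. Genes with at least 1 count numbered 13446 and 13466 in the controls and 15590 and 14791 in the transgenics. Rn45s, the ribosomal RNA precursor, took 5.66% and 3.56% of counts in the controls and 13.0% and 6.40% in the transgenics. Transgenic pup 4 had 44 counts of Xist and 2168 of Y-linked genes, as a male would, and the other pups had the female pattern. The transgenic libraries lay nearer each other than the control libraries did. Pearson r across the 7284 genes whose mean log2 CPM was 4 or more was 0.928 for the transgenic pair and 0.901 for the control pair, as a description over genes, with 17 and 57 genes more than 4-fold apart.

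Genes of the sorted identity were present in all 4 libraries. Basal keratin genes were the most abundant of those checked, Krt5 at 13670, 10130, 9283 and 7402 CPM and Krt14 at 8137, 7588, 5152 and 4277 CPM. Trp63, the basal epithelial transcription factor, was at 1231, 1075, 1339 and 1093 CPM. Lhx2 (a transcription factor), Shh (the follicle's Hedgehog ligand) and Edar (the receptor of Eda) were chosen as hair germ markers. Krt5 and Trp63 were likewise chosen as markers. Lhx2, Shh and Edar were each higher in every hair germ library than the IFE mean of either arm. Their list also held Cdh3, Lef1, Sox9 and Krt17. The levels of Sox9 and Krt17, and of Lef1 in IFE, are not given here. Lhx2 stood at 37.3, 26.8, 75.8 and 126 CPM, Shh at 31.3, 14.9, 42.9 and 143 CPM and Edar at 90.2, 127, 60.03 and 120 CPM. Cdh3, which encodes the P-cadherin of the gate, was at 353, 436, 421 and 576 CPM in hair germ, against means of 340 and 295 CPM in control and transgenic IFE. Its arms overlapped (log2 fold change 0.34, edgeR adjusted p = 0.480). Itga6, the alpha6 integrin of the gate, was at 774 and 903 against 721 and 617 CPM (-0.33, edgeR adjusted p = 0.484).

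Transgenic hair germ carried the miR-200 primary transcript at a level hardly present in the controls. The feature miR200primary stood at 0.176 and 1.40 CPM in control pups 3 and 5, from 2 and 21 counts, and at 526 and 798 CPM in transgenic pups 4 and 6 (log2 fold change 9.57, SE 0.51, edgeR adjusted p = 2.56e-06). Among controls the order of the pups was not the same in both populations, since IFE stood at 3.83 CPM in pup 3, which lacks the construct, and 2.63 CPM in pup 5. The labels do not state which transcript the feature counts, that of the insert or that of the mouse's own loci. Hairpin features held few reads. Mir200a, Mir200b, Mir429 and Mir200c had 0 counts in all 4 hair germ libraries, which allows up to 0.199 to 0.364 CPM of assigned reads, for counting error only. Mir141, of the chromosome 6 cluster, had 15 counts in transgenic pup 4 and 0 in the other three hair germ libraries.

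Among 14176 genes tested, 135 passed (0.952%), 108 higher (0.762%) and 27 lower (0.19%) in transgenic hair germ, and 2426 (17.1%) had an unadjusted p under 0.05. The median log2 fold change of all tested genes was 0.04. Of the rises, 42 averaged under 2 in log2 CPM, and 17 had 0 counts in both controls, the libraries in which fewer genes were detected. The reverse, 0 counts in both transgenics, held for 1 gene. Cd5, a surface receptor of T cells, stood at 11.3 and 10.9 CPM in the controls and 0 in both transgenics, at least 72.5-fold lower against a floor of 3 counts over the arm. It is named because it was the only such gene, after its values were seen. The arms did not overlap, with transgenics above controls, in 3179 genes (22.4%) and below them in 2395 (16.9%). The number passing depended on the pups. Leaving out a control gave 199 (pup 3) or 345 (pup 5), and leaving out a transgenic gave 16 (pup 4) or 14 (pup 6). With hair germ and IFE of pup 4 both left out it was 1, miR200primary, and without the 2 IFE libraries rich in Rn45s, which share the estimate of spread, it was 20. The genes that passed in each of the 4 fits without 1 hair germ library were miR200primary, Trps1, Vim, Arhgap31, Spp1 and Sfpi1.

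**Figure D1:**
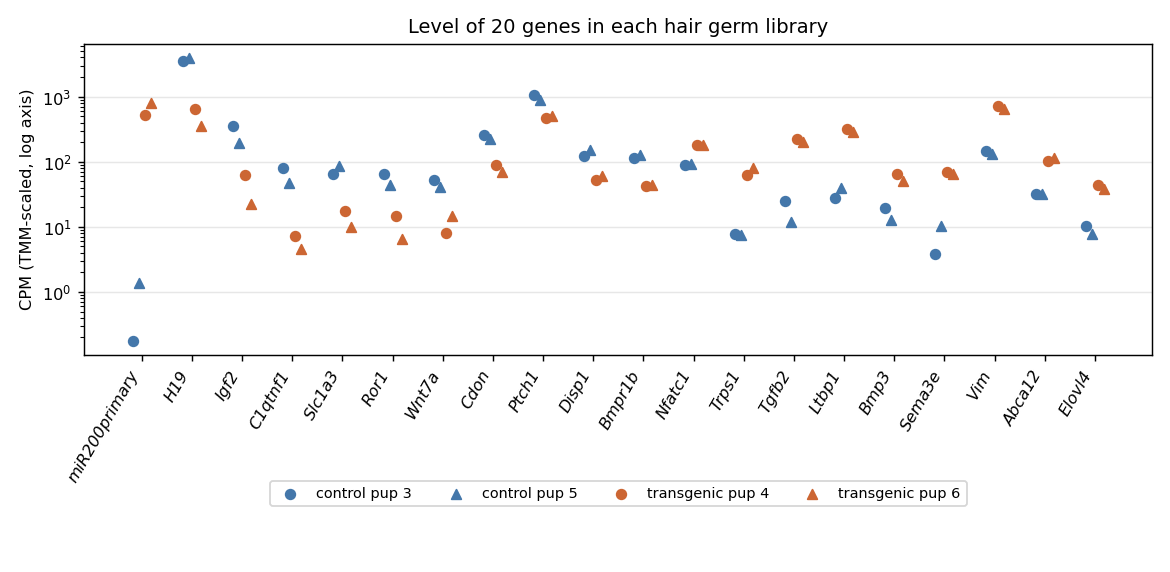
The plot of levels by library gives CPM on a log axis for 20 genes, with circles and triangles for the 2 pups of an arm, controls in blue and transgenics in orange. All 20 genes passed and were picked with their values known, so the separation of their arms is no separate result. H19 falls from 3507 and 3905 to 655 and 350 CPM, and Trps1 rises from 7.64 and 7.38 to 61.5 and 80.5 CPM.

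Of 39 tested hair germ and placode regulators 4 passed, all higher (Trps1, Tgfb2, Ltbp1 and Nfatc1). The list's median log2 fold change was 0.19 against 0.04 for all tested genes. Lists here and below were chosen with earlier results of these data known, so their counts and medians are descriptions only. Trps1 encodes a GATA-type transcription factor needed for hair follicle growth. It stood at 7.64 and 7.38 CPM in the controls and at 61.5 and 80.5 CPM in the transgenics (log2 fold change 3.24, SE 0.32, edgeR adjusted p = 0.00131). The arms were far apart and the pups of each arm close together, and the rise in IFE was of like size (3.18). Nfatc1, a transcription factor of follicle stem cells, stood at 87.7, 92.5, 178 and 179 CPM (log2 fold change 0.99, SE 0.20, edgeR adjusted p = 0.0461). Lhx2 had a log2 fold change of 1.66 (edgeR adjusted p = 0.0580) with both transgenics above both controls. Lef1, the Wnt effector of the placode, lay the other way, at 170, 232, 62.9 and 91.5 CPM (-1.38, edgeR adjusted p = 0.0983). Both are named after their values were seen. Trps1 alone of the 4 passed when transgenic pup 4 or pup 6 was left out, and 0 did with both pup 4 libraries left out.

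Tgfb2 and Ltbp1 of the list above are also genes of TGF-beta signalling. Tgfb2, a TGF-beta ligand made by the early follicle, stood at 24.8 and 11.8 CPM in the controls and at 221 and 200 CPM in the transgenics (log2 fold change 3.54, SE 0.53, edgeR adjusted p = 0.0173). Ltbp1, which binds latent TGF-beta in the matrix, stood at 27.3 and 39.5 CPM against 319 and 285 CPM (3.17, SE 0.54, edgeR adjusted p = 0.0241). Both genes were raised about as much in pup 4 as in pup 6. In IFE their log2 fold changes were 1.72 and 0.84, and the difference between populations did not pass for either (edgeR adjusted p = 0.533 and 0.382). Bmp3, an atypical BMP ligand, stood at 19.6 and 12.6 against 63.8 and 49.9 CPM (1.83, SE 0.38, edgeR adjusted p = 0.0461). Bmpr1b, a type I BMP receptor gene, fell from 115 and 127 CPM to 41.8 and 44.6 CPM (-1.48, SE 0.26, edgeR adjusted p = 0.0280). Of 45 BMP, TGF-beta and activin genes tested these 4 passed, 3 higher and 1 lower, at a list median of 0.10. When transgenic pup 4 or pup 6 was left out, 0 of the 4 passed.

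Among Hedgehog genes, 3 of 15 tested passed and all 3 were lower (Cdon, Disp1 and Ptch1). Of the 15, 13 lay below 0 and the median was -0.39. This list too was chosen with earlier results of these data known. Ptch1, the Hedgehog receptor and a transcriptional target of the pathway (chromosome 13, 63508328 to 63573598), stood at 1044 and 904 CPM in the controls and at 463 and 500 CPM in the transgenics (log2 fold change -1.02, SE 0.20, edgeR adjusted p = 0.0403). Cdon, a co-receptor that binds the ligand, stood at 255 and 220 against 88.5 and 68.5 CPM (-1.60, SE 0.23, edgeR adjusted p = 0.0165). Disp1, which releases the lipid-modified ligand from the cells that make it, stood at 121 and 149 against 52.3 and 59.98 CPM (-1.27, SE 0.24, edgeR adjusted p = 0.0378). Both transgenic pups were below both controls in all 3 genes, which are described because they passed. Shh itself was at 31.3 and 14.9 CPM in the controls and 42.9 and 143 CPM in the transgenics (2.02, edgeR adjusted p = 0.102), a wide spread within the transgenic arm. Gli1, a target and effector, was at 333, 228, 186 and 176 CPM (edgeR adjusted p = 0.211); Shh, Gli1 and Scube2 are named after their values were seen. The 2 members above 0 were Shh and Scube2, which helps release the ligand. The transgenics were below the controls without overlap in 8 of the 15, and above them in 2, against 16.9% and 22.4% of all tested genes. Leaving out transgenic pup 4 or pup 6 left 0 of the 3; with library size alone as the scaling, 1 did. The list median was -0.56 to -0.35 over the 11 other fits for which it was computed.

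Wnt genes did not move together. Of 48 tested, 2 passed, both lower, while the list median was 0.12 and 27 members lay above 0. Wnt7a, a ligand of the epidermis, stood at 51.7 and 41.4 CPM against 8.01 and 14.7 CPM (log2 fold change -2.06, SE 0.40, edgeR adjusted p = 0.0403). Ror1, a receptor tyrosine kinase for Wnt5a, stood at 65.2 and 43.3 against 14.9 and 6.54 CPM (-2.31, SE 0.43, edgeR adjusted p = 0.0358). Kremen1, a receptor of the Dkk inhibitors with the next smallest p, had 102, 85.1, 149 and 177 CPM (0.80, edgeR adjusted p = 0.0941). Neither Wnt7a nor Ror1 passed without transgenic pup 4, pup 6 or control pup 3.

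Both genes of an imprinted pair fell. H19, an imprinted noncoding RNA (chromosome 7, 142575529 to 142578143), stood at 3507 and 3905 CPM in the controls and at 655 and 350 CPM in the transgenics (log2 fold change -2.88, SE 0.48, edgeR adjusted p = 0.0217). Its neighbour Igf2, the fetal insulin-like growth factor (chromosome 7, 142650766 to 142666816), stood at 357 and 194 CPM against 62.2 and 22.2 CPM (-2.69, SE 0.41, edgeR adjusted p = 0.0173). The 2 genes are imprinted in opposite parental directions and share enhancers. Transgenic pup 6 was lower than pup 4 in both. Of 34 IGF and imprinted growth genes 0 rose and these 2 fell, and the list median was 0.01. Igfbp3, a binding protein of the same growth factors, was at 50.2, 35.0, 91.4 and 92.2 CPM (1.11, edgeR adjusted p = 0.0759), against a log2 fold change of -1.16 in IFE. Neither its hair germ value nor the difference between populations passed (difference 2.27, edgeR adjusted p = 0.0524). Without transgenic pup 6 neither H19 nor Igf2 passed, and without pup 4 Igf2 did.

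Other large falls had diverse functions. C1qtnf1, a secreted protein of the C1q and TNF family, stood at 78.9 and 47.0 CPM against 7.22 and 4.61 CPM (log2 fold change -3.38, SE 0.40, edgeR adjusted p = 0.00576). Slc1a3, a glutamate transporter, stood at 64.9 and 86.3 against 17.8 and 10.1 CPM (-2.42, edgeR adjusted p = 0.0208). The arms did not overlap in these genes, which was a condition for naming them. Oat, the mitochondrial ornithine aminotransferase, stood at 139 and 119 against 49.5 and 27.6 CPM (-1.73). Akap2, which anchors protein kinase A, stood at 135 and 146 against 53.4 and 35.1 CPM (-1.66). The cyclin-like gene Ccng2 (-1.63), the secreted protease gene Adamts14 (-1.65), Thoc7 of the mRNA export complex (-2.05), H60c, a ligand of the killer cell receptor NKG2D (-2.11), Mapre2, a microtubule end-binding protein gene (-2.15), Apopt1 (-2.64) and Prrg1 (-2.85) completed the 15 largest falls with H19, Igf2, Ror1 and Wnt7a. Of these 15, C1qtnf1, Igf2 and Oat passed without transgenic pup 4 and 0 passed without transgenic pup 6.

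Seed matches were commoner among the genes that fell. The site for each seed is its reverse complement, CAGTGTT for miR-200a and miR-141 and CAGTATT for miR-200b, miR-200c and miR-429. They were searched on the sense strand of the longest annotated 3′ UTR of each protein-coding gene (GENCODE M21, GRCm38), found for 13319 of 14175 genes. At least 1 match stood in 16 of 26 falls with a UTR (61.5%), in 34 of 105 rises (32.4%) and in 30.2% of all. For CAGTGTT the shares were 57.7%, 21.0% and 20.9%, and for CAGTATT 23.1%, 16.2% and 15.4%. UTR length went with this. The median UTR was 2543 bases in the falls, 1538 in the rises and 1211 in all. Of the 16 matched falls 14 had UTRs longer than 1868 bases, 0.556% of matched genes in that class against 0.157% of unmatched ones. From 725 to 1868 bases the order was the reverse, 0.0874% with a match and 0.152% without (1 and 5 falls). In shorter UTRs the shares rested on 1 and 2 falls. Sites in 6 of the falls described above are shown with the 7 matching bases in capitals.

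Ptch1: agagtatgttttaaCAGTGTTaggagag
Cdon, first site: aggtttcaaccagcCAGTGTTgttatga
Cdon, other site: ttatatacatttgtCAGTATTcccttac
Bmpr1b, first site: atcacttatatgacCAGTATTccttaga
Bmpr1b, other site: attcctccagggggCAGTGTTttcctat
Igf2: gctggacacccaccCAGTGTTaatatgc
Ror1: cacctatataatgaCAGTGTTcaggtag
Slc1a3: tcatccattggcctCAGTGTTctcatcc

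The UTR positions of these matches, counted from the first UTR base, are 3033 of 3205 in Ptch1, 619 and 1782 of 3432 in Cdon (chromosome 9), 1342 and 1528 of 3479 in Bmpr1b (chromosome 3), 2657 of 3050 in Igf2, 2317 of 2520 in Ror1 (chromosome 4) and 587 of 2008 in Slc1a3 (chromosome 15). In Ptch1 and Igf2 the match is followed by an A, as in the strongest class of microRNA sites. Among the other falls Akap2 held 6 matches, Crybg3 4, and C1qtnf1, Wnt7a and Adamts14 0. The transcript of Disp1 has an annotated UTR of 23 bases, so its 0 matches say little. A match is a description of these letters and does not show binding.

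Over all genes, those with a match lay slightly below those without. The 9299 genes with 0 matches had a median log2 fold change of 0.08, the 4020 with at least 1 had -0.05, and the 1381 with at least 2 had -0.14. The order was the same within UTRs of up to 725 bases (0.08 without, -0.05 with), of up to 1868 bases (0.06 and -0.03) and of longer ones (0.11 and -0.06). Genes whose mean log2 CPM was 4 or more gave the same order (-0.04 without, -0.14 with). Taken library by library against the mean of the 4, the matched median minus the unmatched one was 0.00718 in control pup 3, 0.125 in control pup 5, -0.0609 in transgenic pup 4 and -0.0744 in transgenic pup 6. Both transgenics were below both controls, but the controls differed from each other by nearly as much as the arms did. In IFE the same values were 0.0591 and 0.0957 in the controls and -0.0957 and -0.0792 in the transgenics.

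**Figure D2:**
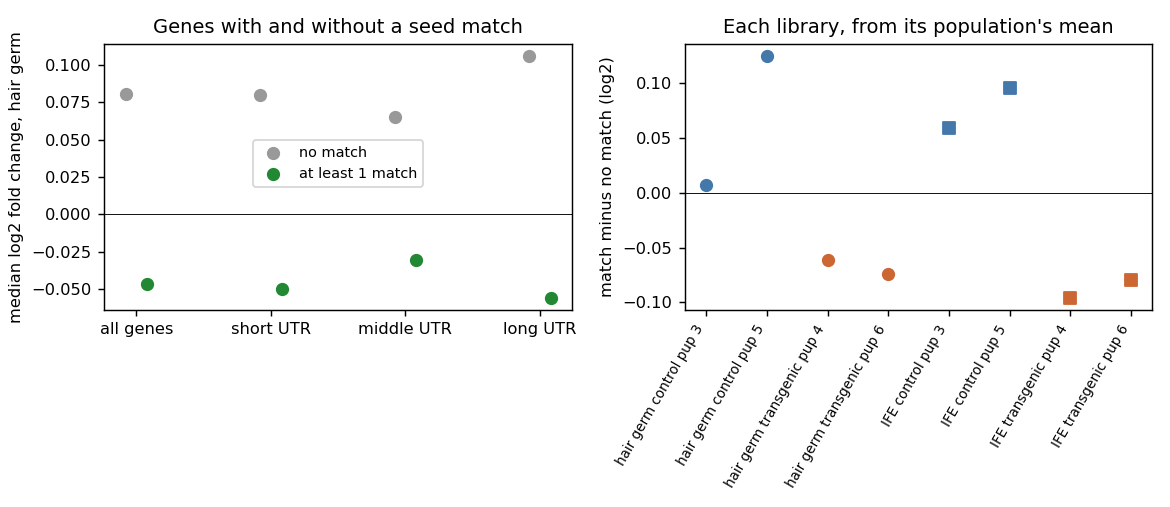
The plot of seed matches shows, on the left, the median log2 fold change in hair germ of genes without (grey) and with (green) a match, for all genes and by UTR length, and on the right the matched minus unmatched median in each library, controls in blue and transgenics in orange. Matched genes are lower in each length class, by 0.08 against -0.05 over all genes, and the 4 transgenic libraries lie below 0.

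The textbook targets of the family did not fall as a list. Of 42 tested, 1 passed, Tgfb2, and it rose, with 2 matches to CAGTGTT in its UTR. Below 0 lay 23 members and above it 19. The arms did not overlap in 10 below and 9 above, where 16.9% and 22.4% of all tested genes did so. Of these 42 genes 35 held a match and 28 held at least 2, and the median of the matched ones was -0.06, near the -0.05 of all matched genes. Zfpm2, a GATA cofactor, was at 2.64, 2.59, 17.3 and 39.99 CPM (log2 fold change 3.43, edgeR adjusted p = 0.0562). Flt1, a VEGF receptor gene with 0 matches in its UTR, was at 7.73, 0.133, 32.7 and 56.1 CPM (3.59, edgeR adjusted p = 0.0591). Zeb1 was near the detection limit, at 0, 0.997, 2.73 and 2.18 CPM. Zeb2 was at 11.6 and 6.98 CPM in the controls and at 25.0 and 25.7 CPM in the transgenics (1.46, SE 0.49, edgeR adjusted p = 0.166), with 9 matches in the UTR of Zeb1 and 9 in that of Zeb2. Both are named as the best known targets. Zeb2 is also expressed by macrophages and melanocytes, whose markers moved in the same libraries (below), and the part of those cells in its values was not tested. Cdh1, the E-cadherin gene that Zeb factors repress, was at 1413, 1351, 1382 and 1290 CPM, with overlapping arms, and is named after its values were seen. Of 25 genes of epithelial and mesenchymal identity 1 passed, Vim.

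Vim, the intermediate filament gene of mesenchymal and blood cells, stood at 146 and 132 CPM in the controls and at 729 and 638 CPM in the transgenics (log2 fold change 2.30, SE 0.23, edgeR adjusted p = 0.00131). In IFE its rise was larger, 4.80, and the difference between populations passed (-2.51, SE 0.31, edgeR adjusted p = 0.0284). Among guidance genes Sema3e, a secreted semaphorin, stood at 3.78 and 10.3 against 69.9 and 65.7 CPM (3.23, SE 0.46, edgeR adjusted p = 0.0165). Slit2, a ligand of Robo receptors, stood at 0 and 1.06 against 11.3 and 19.4 CPM (edgeR adjusted p = 0.0344). Of 42 semaphorin, ephrin and guidance genes these 2 rose and 0 fell, at a median of 0.08. Of 21 interstitial collagen and matrix genes 2 rose, Thbs2 and Col14a1, and 0 fell (median 0.27). Thbs2, a thrombospondin, stood at 11.7 and 20.1 against 52.4 and 92.2 CPM (2.17, SE 0.42, edgeR adjusted p = 0.0403). Col14a1, a fibril-associated collagen, stood at 14.9 and 14.02 against 41.4 and 81.1 CPM (2.07, SE 0.42, edgeR adjusted p = 0.0454). Lama2, the laminin alpha chain of muscle and nerve, stood at 0.176 and 0 against 5.81 and 25.3 CPM. In all 3 matrix genes transgenic pup 6 was the higher. Among 37 basement membrane and hemidesmosome genes Lama2 was the only one to pass and 23 lay below 0 (median -0.22), and the metalloprotease gene Adam19 was the only one of 27 proteases and inhibitors (5.80 and 4.32 against 18.1 and 23.02 CPM). When transgenic pup 4 or pup 6 was left out, Vim passed and the other genes of this paragraph did not.

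The other genes among the 15 largest rises were of several kinds. Hmcn1, a large extracellular matrix protein, stood at 10.02 and 5.98 against 98.5 and 144 CPM (log2 fold change 3.94, edgeR adjusted p = 0.0403). Arhgap31, a GTPase-activating protein for Rac and Cdc42, stood at 1.76 and 1.40 against 26.3 and 20.1 CPM (3.89, SE 0.39, edgeR adjusted p = 0.00131). Runx3, a Runt-family transcription factor, stood at 0.439 and 1.79 against 11.4 and 20.1 CPM. Neuronal genes were among them. Dpysl3, a semaphorin signalling protein, stood at 3.25 and 1.53 against 34.6 and 36.7 CPM, and the potassium channel gene Kcna1 stood at 4.66 and 1.13 against 32.4 and 32.7 CPM. The glutamate receptor gene Grik3 (3.67) and the actin regulator Cyfip2 (3.71) also rose, as did Il10ra (3.80), the interleukin 10 receptor, and Myo1g (3.56), a myosin of blood cells. Tmem38b rose by 5.16 but rested on pup 4, at 324 CPM against 28.8 CPM in pup 6. Of the 15, miR200primary, Arhgap31, Runx3, Grik3 and Trps1 passed without transgenic pup 4, and without pup 6, miR200primary, Tmem38b, Arhgap31 and Trps1.

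Genes of the epidermis showed few single changes. Of 25 suprabasal differentiation genes 2 rose, Abca12 and Elovl4, both lipid genes of the skin barrier, and 0 fell, at a median of 0.43. Abca12, the lipid transporter of the cornified layer, stood at 32.4 and 32.0 against 102 and 114 CPM (log2 fold change 1.75, SE 0.31, edgeR adjusted p = 0.0280). Elovl4, which makes very long chain fatty acids, stood at 10.2 and 7.84 against 44.1 and 38.1 CPM (2.20, SE 0.45, edgeR adjusted p = 0.0461). Neither passed with any 1 left out of the 4 hair germ libraries, and the list median was 0.02 without transgenic pup 4. Of 26 basal epidermis genes 0 passed, 19 lay below 0, and the arms did not overlap in 14 below and 4 above (median -0.34), where 16.9% and 22.4% of all tested genes did so. Krt15, a keratin of basal and bulge cells, was the lowest of them in p, at 1629 and 1200 against 716 and 327 CPM (-1.44, edgeR adjusted p = 0.0562). Of 22 tested keratin genes 0 passed, and Krt6a, a keratin of the outer sheath and of injured skin, was at 0.0879, 2.72, 23.7 and 14.2 CPM (edgeR adjusted p = 0.0535).

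In the chosen lists for cell junctions, polarity, adhesion and actin, 0 tested members passed. That holds for the listed members only. The integrin gene Itgb2 and the actin regulator Cyfip2 passed and are on none of these lists. The same is true of the cytoskeleton genes Arpc1b, Fmn1, Fmnl1, Myo1g, Synpo2 and Tmod2, named after their values were seen. The basement membrane, matrix, guidance and protease lists described above, which held passing genes, are not counted here. The lists were adherens junction (21 tested, median 0.04), desmosome (16, -0.10), tight junction (17, 0.27), planar cell polarity (27, 0.10), apical-basal polarity and spindle (28, -0.12), integrins and focal adhesion (34, 0.19) and actin regulators (50, -0.13). At an unadjusted p under 0.05, 2 adherens junction genes were higher and 1 lower, 2 desmosome genes were higher and 2 lower, and 3 planar polarity genes were higher and 2 lower. The smallest p belonged to Tln1, the talin that links integrins to actin, at 344 and 401 CPM against 215 and 169 CPM (log2 fold change -0.96, edgeR adjusted p = 0.0535). Pard3b, a polarity scaffold, was at 8.17, 16.7, 40.9 and 41.9 CPM (1.72, edgeR adjusted p = 0.0601), and Celsr1, the atypical cadherin of planar polarity, at 1054, 952, 650 and 707 CPM (-0.56, edgeR adjusted p = 0.173). In each of these 3 genes the arms did not overlap. Some medians changed sign when 1 library was left out. The adherens junction median was -0.12 without control pup 3 and -0.14 without transgenic pup 4, tight junction -0.07 without control pup 3, planar polarity -0.04 without transgenic pup 4, and integrins about 0 without transgenic pup 4.

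Most cell cycle genes tested lay below 0, and 0 passed. The median was -0.45 in 34 G2/M and mitosis genes, 30 of them below 0, and -0.31 in 34 G1/S and DNA replication genes, 27 below 0. Of the 34 G2/M genes 10 had an unadjusted p under 0.05 with a negative fold change and 0 with a positive one, where 17.1% of all tested genes had such a p in either direction. Anln, a scaffold of the cleavage furrow, was at 166 and 155 against 105 and 87.2 CPM (log2 fold change -0.74, edgeR adjusted p = 0.0990), and Mcm7, a replicative helicase subunit, at 144 and 178 against 92.2 and 108 CPM (-0.69). In 24 hypoxia and glycolysis genes the median was 0.65, with 22 above 0 and 1 passing. That gene, Pfkfb3, which makes an activator of glycolysis, stood at 19.9 and 14.1 against 47.6 and 90.4 CPM (2.02, SE 0.37, edgeR adjusted p = 0.0314). Pkm, a glycolytic enzyme gene, was at 363 and 377 against 560 and 607 CPM (0.66, edgeR adjusted p = 0.108). Pfkfb3 did not pass without control pup 5, transgenic pup 4 or transgenic pup 6. Among 27 immediate early genes 1 passed, Egr2, a zinc finger factor, at 38.2 and 36.2 against 93.5 and 75.5 CPM (1.19), and it did not pass with any 1 hair germ library left out. Of 11 microRNA machinery genes 0 passed and 9 lay below 0, with Drosha, the nuclear enzyme that cuts primary transcripts, at 125 and 139 against 81.8 and 70.0 CPM (-0.80, edgeR adjusted p = 0.140).

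**Figure D3:**
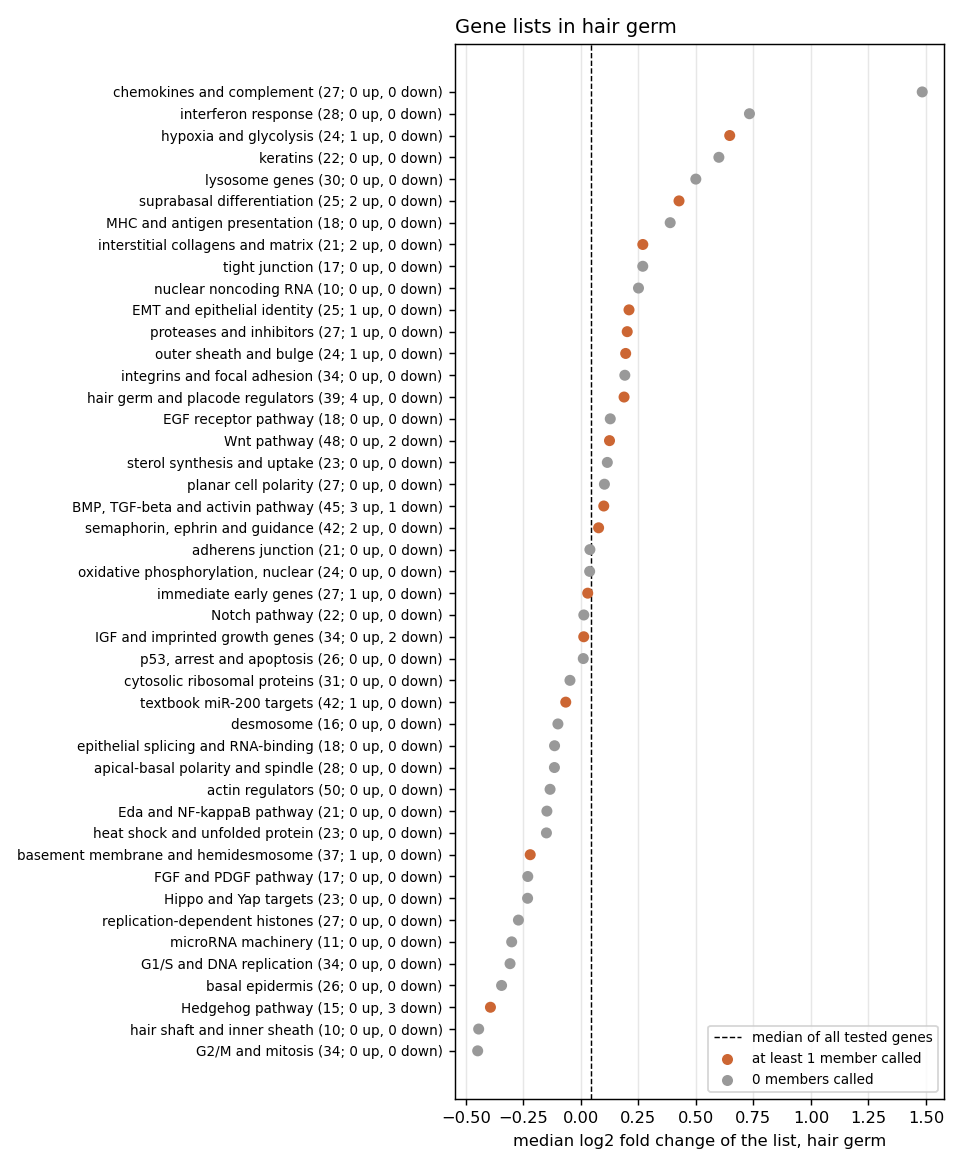
The plot of list medians gives the median log2 fold change in hair germ of 45 gene lists with at least 9 tested members, with the number tested and the number passing in each direction in brackets, orange where at least 1 member passed. The dashed line is the median of all tested genes, 0.04, with Hedgehog at -0.39 and hypoxia and glycolysis at 0.65.

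Markers of macrophages and of melanocytes had higher summed levels in both transgenic libraries than in both controls. In bulk RNA, more cells of a type and more RNA per cell cannot be told apart. Of 26 macrophage and monocyte markers tested 9 rose and 0 fell, 25 lay above 0, and the median was 1.95. Markers with 0 counts in both controls could not lie below 0, and were tested only through counts in other libraries. The marker lists too were chosen with earlier results of these data known. Spp1 (osteopontin, a secreted phosphoprotein) had 0 counts in both controls and 18.8 and 24.6 CPM in the transgenics, at least 187-fold higher. Sfpi1, the myeloid transcription factor PU.1, had 0 counts in both controls and 8.80 and 7.03 CPM, at least 71.0-fold higher. Fcgr2b, Trem2 and Itgb2, receptors and an integrin of myeloid cells, likewise had 0 counts in both controls and were at least 80.0-fold, 64.2-fold and 55.2-fold higher. Laptm5 and Lyz2, lysosomal genes of blood cells, had log2 fold changes of 2.82 and 3.77, Cd14 of 2.55 and Ptprc, the leukocyte antigen CD45, of 1.40. The summed level of the list was 221 and 91.2 CPM in the controls and 593 and 385 CPM in the transgenics. Csf1r, the receptor that defines macrophages, was present in all 4 libraries, at 61.1, 14.5, 124 and 64.4 CPM, and Tyrobp, at 3.34, 3.65, 10.9 and 2.06 CPM, had overlapping arms; both were chosen after their values were seen. Fcgr2b, Sfpi1, Spp1 and Itgb2 passed without transgenic pup 4, and Sfpi1 and Spp1 without pup 6.

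Melanocyte markers were higher too. Of 13 tested 4 rose and 0 fell, all 13 lay above 0, and the median was 3.29, or 3.09 with genes at 0 set to their bound. As with the macrophage markers, a member with 0 counts in both controls could not lie below 0. Dct, a melanin enzyme, stood at 11.2 and 3.52 CPM against 45.1 and 61.9 CPM (log2 fold change 2.90, SE 0.49, edgeR adjusted p = 0.0208). Kit, the stem cell factor receptor of melanoblasts, stood at 0 and 2.19 against 20.9 and 51.5 CPM (4.87, SE 0.88, edgeR adjusted p = 0.0241). Pmel and Gpnmb, melanosome proteins, stood at 1.14 and 2.99 against 16.5 and 16.4 CPM and at 1.05 and 2.26 against 16.2 and 18.5 CPM. The summed melanocyte level was 36.7 and 33.6 CPM in the controls and 166 and 216 CPM in the transgenics, with Oca2 at 0 in all 4. With transgenic pup 4 or pup 6 left out, 0 of the 4 passed.

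Other marker lists had 0 or 1 gene passing. The summed level was 167 and 136 against 201 and 263 CPM for dermal papilla (median 2.67, with Trps1 passing), 45.8 and 27.3 against 90.0 and 77.2 CPM for Merkel cells (1.51), 12.3 and 9.70 against 56.9 and 77.4 CPM for endothelium (2.56) and 376 and 450 against 763 and 544 CPM for sebaceous cells (1.56). Medians cover only the tested members and weigh each alike, whatever its level, while sums take in all members found. A marker near 0 counts in the controls was tested only through counts in other libraries. Such members could hardly lie below 0, so these medians lean upward. Tested were 11 of 18 dermal papilla, 11 of 14 Merkel cell, 7 of 15 endothelial and 9 of 10 sebaceous markers. The defining endothelial genes Cdh5, Emcn, Cldn5, Sox17 and Lyve1 had 0 counts in all 4 libraries. Fibroblast markers went the other way, 347 and 503 against 244 and 263 CPM (median -0.14 of 6 tested), with Dpt and Twist2 at 0. T cell and lymphoid markers overlapped, at 30.2 and 44.0 against 46.7 and 30.7 CPM. Genes that macrophages or melanocytes also express, Vim and Runx3 among those above, rose in the same libraries. The sort took cells with K14RFP that were high in P-cadherin and alpha6 integrin. The part of macrophages and melanocytes in each rise was not tested.

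**Figure D4:**
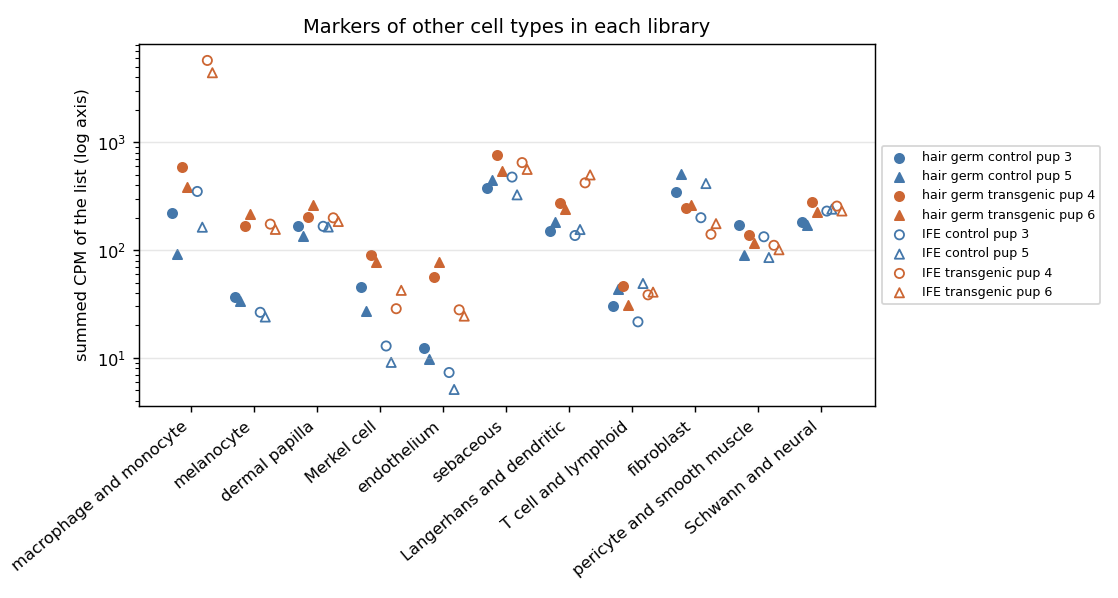
The plot of marker sums gives the summed CPM, on a log axis, of 11 marker lists in each of the 8 libraries, filled for hair germ and open for IFE, controls in blue and transgenics in orange. Macrophage markers reach 593 and 385 CPM in transgenic hair germ against 5744 and 4416 CPM in transgenic IFE, while melanocyte markers reach 166 and 216 against 174 and 156 CPM.

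Against IFE of the same pups, most hair germ changes had the same direction. In IFE 899 genes passed (6.34%), 707 higher (4.99%) and 192 lower (1.35%). Of the 135 hair germ genes 85 also passed in IFE in the same direction (63.0% of the hair germ genes and 9.46% of the IFE genes), 67 higher and 18 lower, and 0 in the opposite direction. Of the 108 rises 103 were above 0 in IFE, and of the 27 falls 26 were below 0. The pups are the same in both, and both contrasts come from the same fit with the same estimate of spread, so this is no independent repeat. The share of all tested genes with the same direction in both populations is not given here. The effect of the transgene differed between the populations in 19 genes (0.134%), and 1147 had an unadjusted p under 0.05. In 19 of the 19 the hair germ effect was below the IFE effect. Of the 135 hair germ genes 3 were among them, Vim, Ptprc and Fmnl1, a formin of blood cells. Ptprc stood at 10.7 and 11.8 against 29.0 and 30.5 CPM in hair germ (1.40), and at means of 19.8 and 337 CPM in IFE (4.09), with a difference of -2.69 (SE 0.33, edgeR adjusted p = 0.0284). The 50 hair germ genes that did not pass in IFE, 41 higher and 9 lower, are not shown to be particular to hair germ, since 0 of the 50 passed the test of the difference. Leaving out transgenic pup 4 or pup 6 turned the 19 into 0 (1357 and 1104 genes at an unadjusted p under 0.05), and without control pup 3 or 5 they became 48 and 192.

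**Figure D5:**
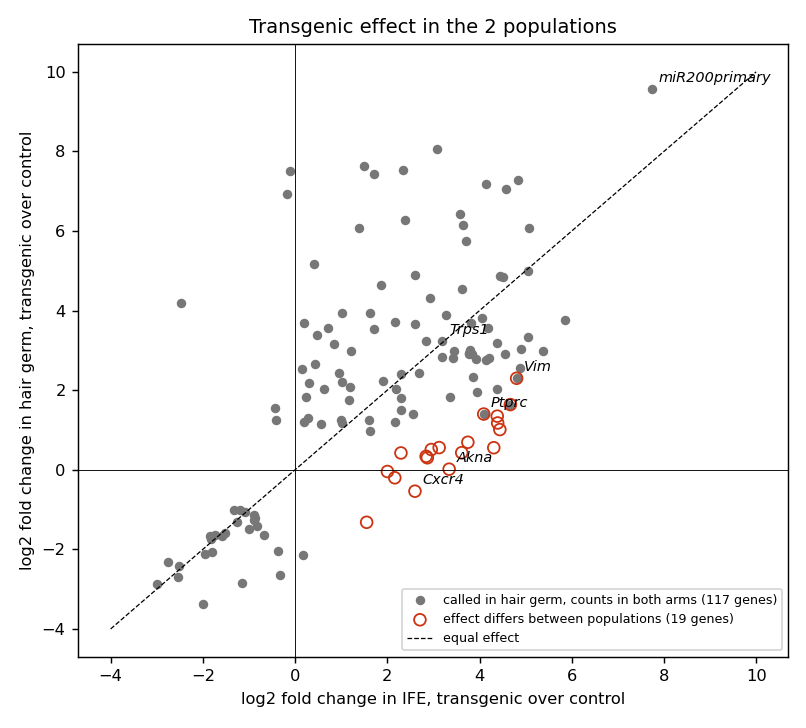
The plot of both populations sets the log2 fold change in IFE (horizontal) against that in hair germ (vertical) for the 117 genes passing in hair germ with counts in both arms, in grey, and rings the 19 genes whose effect differed. The ringed genes lie below the dashed line of equal effect, and 18 genes with 0 counts in an arm are not drawn.

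Pups of 1 arm also differed from each other. The 5 genes furthest apart in each direction, taken where mean log2 CPM was 4 or more, are given as a description. In the controls Pdpn (177 and 9.77 CPM), Ctnna2 (61.9 and 4.65 CPM), Hfm1, Pld4 and Csmd3 were higher in pup 3, which carried K14rtTA. Serpinb2, a protease inhibitor of stressed skin (16.9 and 267 CPM), F3, tissue factor (41.6 and 283 CPM), Ehf, Zfp654 and Pign were higher in pup 5, which carried the construct. Genotype and pup cannot be told apart in these 2 libraries. In the transgenics Lars2 (2577 and 183 CPM), Tmem38b, Snord15b, Palm2 and Mall were higher in pup 4, and Xist, Narg2, Spry1 (8.19 and 42.05 CPM), Cnnm3 and E2f6 in pup 6. Of these 20 genes Tmem38b alone is among the 135.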

How the data were processed

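Sorted cells gave total RNA for stranded SMARTer libraries, per the labels' protocols. The deposited counts are whole reads per gene symbol made by the authors with TopHat and HTSeq on mm10 (GRCm38), per the submitters' processing notes; no version or strand setting is given in the sources used here, and reads of overlapping antisense genes may not be told apart. The deposited normalized matrix, unit signal, was checked against the counts, from which each library differs by 1 divisor, and was not tested. DESeq2 is also in the submitters' processing notes. Reads that named no gene were left out. In hair germ, 41.5% to 47.8% lay outside genes and 12.5% to 25.1% were not unique.

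Counts were scaled by the trimmed mean of M values, filtered by filterByExpr to 14176 of 23433 symbols and fitted with edgeR 4.0.16 in R 4.3.3 (glmQLFit with legacy set to FALSE, glmQLFTest, two-sided) as 4 group means over all 8 libraries. Benjamini-Hochberg adjustment ran over all genes of a contrast, with a threshold of 0.05. The spread shares 4 residual degrees of freedom. Each SE was taken from the fold change and the F statistic (size over root F). Alternatives used DESeq2 1.42.0 and limma 3.58.1. The script was tested on simulated data. A gene at 0 in an arm has a floor of 3 counts. The 61 gene lists held 1543 entries, of which 1518 were found. The members and lists were chosen with earlier results of these data known.

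Named genes are, among passing genes whose arms do not overlap and whose mean log2 CPM reaches 2, the 15 largest rises and 15 largest falls without predicted and clone-named genes, every passing list member, up to 3 members of smallest p per list described, the sort genes, the miR-200 loci, genes passing in every fit without 1 hair germ library, and the 5 most unlike genes in each direction between the pups of an arm. Others are said to be named after their values were seen.

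Per the labels a pup number is 1 animal, so hair germ and IFE libraries are paired by pup while the arms share none. Deviations from the group means, set side by side for hair germ and IFE of a pup, had r of 0.117 in controls and 0.0868 in transgenics over all genes, and 0.383 and 0.183 over genes whose mean log2 CPM reaches 4. Promoter windows of the tested genes were also searched for 3 motifs; the results were seen and are not reported. The value of 1 gene whose effect differed between the populations is not reported here.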

Additional observations from a re-analysis of the deposited data

Results flagged for a closer look

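The effect of the transgene differed between hair germ and IFE, by edgeR's interaction test at an adjusted p under 0.05, in 19 genes, each with a lower log2 fold change in hair germ. Among them the differences (hair germ minus IFE, log2) were -2.69 in Ptprc, -2.51 in Vim, -3.43 in Lsp1, -3.33 in Akna, -2.57 in Ptprj, -1.87 in Tgfbr1, -2.87 in Ankrd44, -2.50 in Cd84, -3.18 in Ctsz and -3.75 in Dock2. They were -2.57 in Elmo1, -2.36 in Epb4.1l2, -3.03 in Fmnl1, -2.05 in Ftl1, -3.04 in Lcp1, -2.45 in Plxnd1, -3.06 in St6gal1 and -3.14 in Cxcr4. In hair germ Akna stood at 14.8, 22.5, 20.4 and 17.3 CPM in control pups 3 and 5 and transgenic pups 4 and 6, and Cxcr4, a chemokine receptor gene, at 21.8, 25.0, 18.1 and 13.9 CPM. Ankrd44 was at 31.5 and 21.5 against 10.9 and 10.2 CPM in hair germ (log2 fold change -1.32), and at 1.55 in IFE. The summed macrophage and monocyte marker level was 593 and 385 CPM in transgenic hair germ and 5744 and 4416 CPM in transgenic IFE, and its part in these differences was not tested.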

How the results depend on the processing

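The limits are 2 pups an arm, controls of unlike genotype, 1 male pup and Rn45s shares of 3.56% to 13.0% in hair germ, of which the parts in the results were not tested. The 135 genes passing (108 higher, 27 lower) became 139 with DESeq2 size factors, 316 (279 higher) with library size alone, 182 without the low-count filter, 54 (43 and 11) with edgeR's legacy method, 22 (17 and 5) in hair germ alone, 20 (15 and 5) without the Rn45s-rich IFE libraries, 174 without Rn45s, Xist and Y-linked genes, 696 (522 and 174) with DESeq2 and 17 (11 and 6) with limma-voom. Without both libraries of pup 4 they became 1 (1 higher, 0 lower), and with 1 hair germ library left out 14 to 345 (12 to 262 higher, 0 to 83 lower). The zero falls came without transgenic pup 6, where 2177 genes had an unadjusted p under 0.05. No gene of the 135 changed sign in any of these fits where it was fitted, but they reuse the same libraries. Where the arms do not overlap, leaving out 1 library could hardly change the sign. With pup as a replicate block, limma-voom called 26 (18 higher, 8 lower). For the difference between populations, 19 genes became 45 without the filter, 0 to 192 with 1 library left out, 183 with DESeq2 and 86 with pup as a replicate block, and stayed 19 with DESeq2 size factors. Of the 59 named genes that passed, 59 did so with DESeq2 size factors, 55 with library size alone, 57 with DESeq2, 12 with limma-voom, 16 with the replicate block, 35 when control pup 3 was left out, 42 for control pup 5, 13 for transgenic pup 4 and 7 for transgenic pup 6. The matched minus unmatched seed median, -0.13, ran from -0.191 to -0.0839 with 1 library left out, computed after the data were seen. The causes were not tested.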
